A study of Drosophila melanogaster with 2 samples.

Results

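Peaks of the zinc finger transcription factor Rotund at 10 genes of the Dpp pathway are described here: the ligand gene dpp, the receptor genes tkv, sax and put, the signal transducer genes Mad and Med, the inhibitor gene Dad, the repressor gene brk, the cofactor gene shn and the corepressor gene Snoo. All 10 were found in the dm6 gene models, out of 13945 protein-coding genes on the 6 main chromosome arms. They were listed for their place in the pathway, with earlier results of these data known. A peak was given to a gene when its summit, the base of highest signal, lay in the gene body or up to 5 kb upstream.

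Binding was mapped by ChIP-seq (chromatin immunoprecipitation followed by sequencing) in whole Drosophila melanogaster pupae of a strain named rn-GFP, which carries an insertion targeting the Rotund gene rn and makes a Rotund-eGFP fusion. An anti-GFP antibody was used for the precipitation, and there were 2 biological replicates in 1 group, with pupal stage unknown and sex not collected. Whole animals mix tissues, so no peak can be tied to a cell type, and the design holds no second condition to compare with. The labels give each replicate a biosample record of its own, from the same fly strain.

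Dpp is a secreted signal of the bone morphogenetic protein (BMP) class. It binds pairs of type I receptors (Tkv and Sax) with a type II receptor (Put), which leads to phosphorylation of Mad. Mad then enters the nucleus with Med and, together with Shn, silences brk, whose product represses many Dpp targets. In leg and wing discs Dpp acts as a morphogen, and in the leg it works with Wingless to set up the distal domains in which rn is active.

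DNA around a choice of summits shows what the bound stretches look like. It is not a ranking by strength over all 10 genes, since the strong shn summits are described below by their values alone. For dpp, Snoo, tkv, brk, Mad and Dad the summit of the strongest peak is given with 50 bp on each side, followed by the 5 other Snoo summits called in both replicates. All are dm6 sequence of the plus strand, and capitals mark unbroken stretches of at least 6 bases made only of A and T.
dpp intron, 2L:2433587-2433687: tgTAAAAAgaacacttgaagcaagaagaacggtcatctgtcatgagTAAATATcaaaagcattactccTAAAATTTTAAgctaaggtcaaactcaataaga
Snoo intron, 2L:7925536-7925636: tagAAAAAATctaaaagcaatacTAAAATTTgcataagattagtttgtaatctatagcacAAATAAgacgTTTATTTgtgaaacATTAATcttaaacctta
tkv intron, 2L:5254236-5254336: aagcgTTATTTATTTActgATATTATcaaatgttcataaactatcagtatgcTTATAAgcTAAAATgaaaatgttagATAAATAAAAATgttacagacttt
brk upstream, X:7307130-7307230: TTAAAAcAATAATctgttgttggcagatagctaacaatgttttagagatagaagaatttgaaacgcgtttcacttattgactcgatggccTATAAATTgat
Mad intron, 2L:3153376-3153476: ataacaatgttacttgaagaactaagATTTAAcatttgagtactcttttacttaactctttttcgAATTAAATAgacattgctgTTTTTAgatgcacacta
Dad intron, 3R:17059670-17059770: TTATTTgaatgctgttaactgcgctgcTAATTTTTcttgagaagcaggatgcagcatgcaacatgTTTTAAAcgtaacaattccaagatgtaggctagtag
Snoo intron, 2L:7898773-7898873: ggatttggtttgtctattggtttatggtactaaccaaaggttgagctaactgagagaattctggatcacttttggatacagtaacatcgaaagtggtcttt
Snoo intron, 2L:7900068-7900168: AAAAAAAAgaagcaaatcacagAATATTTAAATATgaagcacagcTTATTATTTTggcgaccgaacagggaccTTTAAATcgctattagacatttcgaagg
Snoo intron, 2L:7916455-7916555: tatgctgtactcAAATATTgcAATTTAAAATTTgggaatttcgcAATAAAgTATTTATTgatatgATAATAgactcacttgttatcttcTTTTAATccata
Snoo intron, 2L:7949930-7950030: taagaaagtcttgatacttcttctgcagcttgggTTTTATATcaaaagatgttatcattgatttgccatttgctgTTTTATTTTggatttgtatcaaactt
Snoo intron, 2L:7964745-7964845: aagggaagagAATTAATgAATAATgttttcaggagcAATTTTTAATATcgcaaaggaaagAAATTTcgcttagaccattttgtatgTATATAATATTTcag
Of these 11 windows, 10 hold at least 2 such stretches, and the longest is 13 bases. The Snoo window at 2L:7898773-7898873 holds none.

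The main set, thresholded over both replicates, had 3777 peaks, 3774 of them on the main arms, and the single replicates' sets held 2377 and 2114. A further deposited list over both replicates is named conservative and held 3615. The authors' signal value gives the height of a peak. In the main set it had a median of 79.7 with quartiles of 60.1 and 119.1. It is not scaled between lists, so values are ranked only within a list. Replicate values below are the signals of the overlapping peaks in each replicate's own ranked list, which holds peaks of every strength. A peak is called in a replicate when it overlaps that replicate's thresholded set. The rn gene itself held 6 peaks under the same rule, the strongest with a signal of 105.9.

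Rotund peaks were found at 8 of the 10 pathway genes, with 42 peaks in all. Of these, 14 were at the corepressor gene Snoo and 12 at the cofactor gene shn, which are also the longest of the 10. When each peak went to the protein-coding gene with the nearest transcript start, Snoo had 5, tkv 1 instead of 5, brk 5 instead of 2, and shn still 12. The strongest single peak lay in dpp. Med and sax had no peak. By the same rule 27.1% of all protein-coding genes had a peak, and the share was 39.6% among genes at least as long as brk, the shortest of the 10, and 50.7% among genes of 10 kb or more. The 10 genes are long, with a median of 15.0 kb against 2.17 kb for all protein-coding genes. They were chosen with earlier results of these data known. The shares here and the densities below therefore describe the list and are not an unbiased comparison. In the single replicates' sets 7 of the 10 had a peak in replicate 1 (19.4% of protein-coding genes) and 7 in replicate 2 (18.3%), and 6 had one in both. The share of protein-coding genes with one in both was not computed and can be at most 18.3%. Each of those sets held 26 peaks at the 10 genes. In the conservative set 9 had a peak (26.4% of protein-coding genes).

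**Figure D1:**
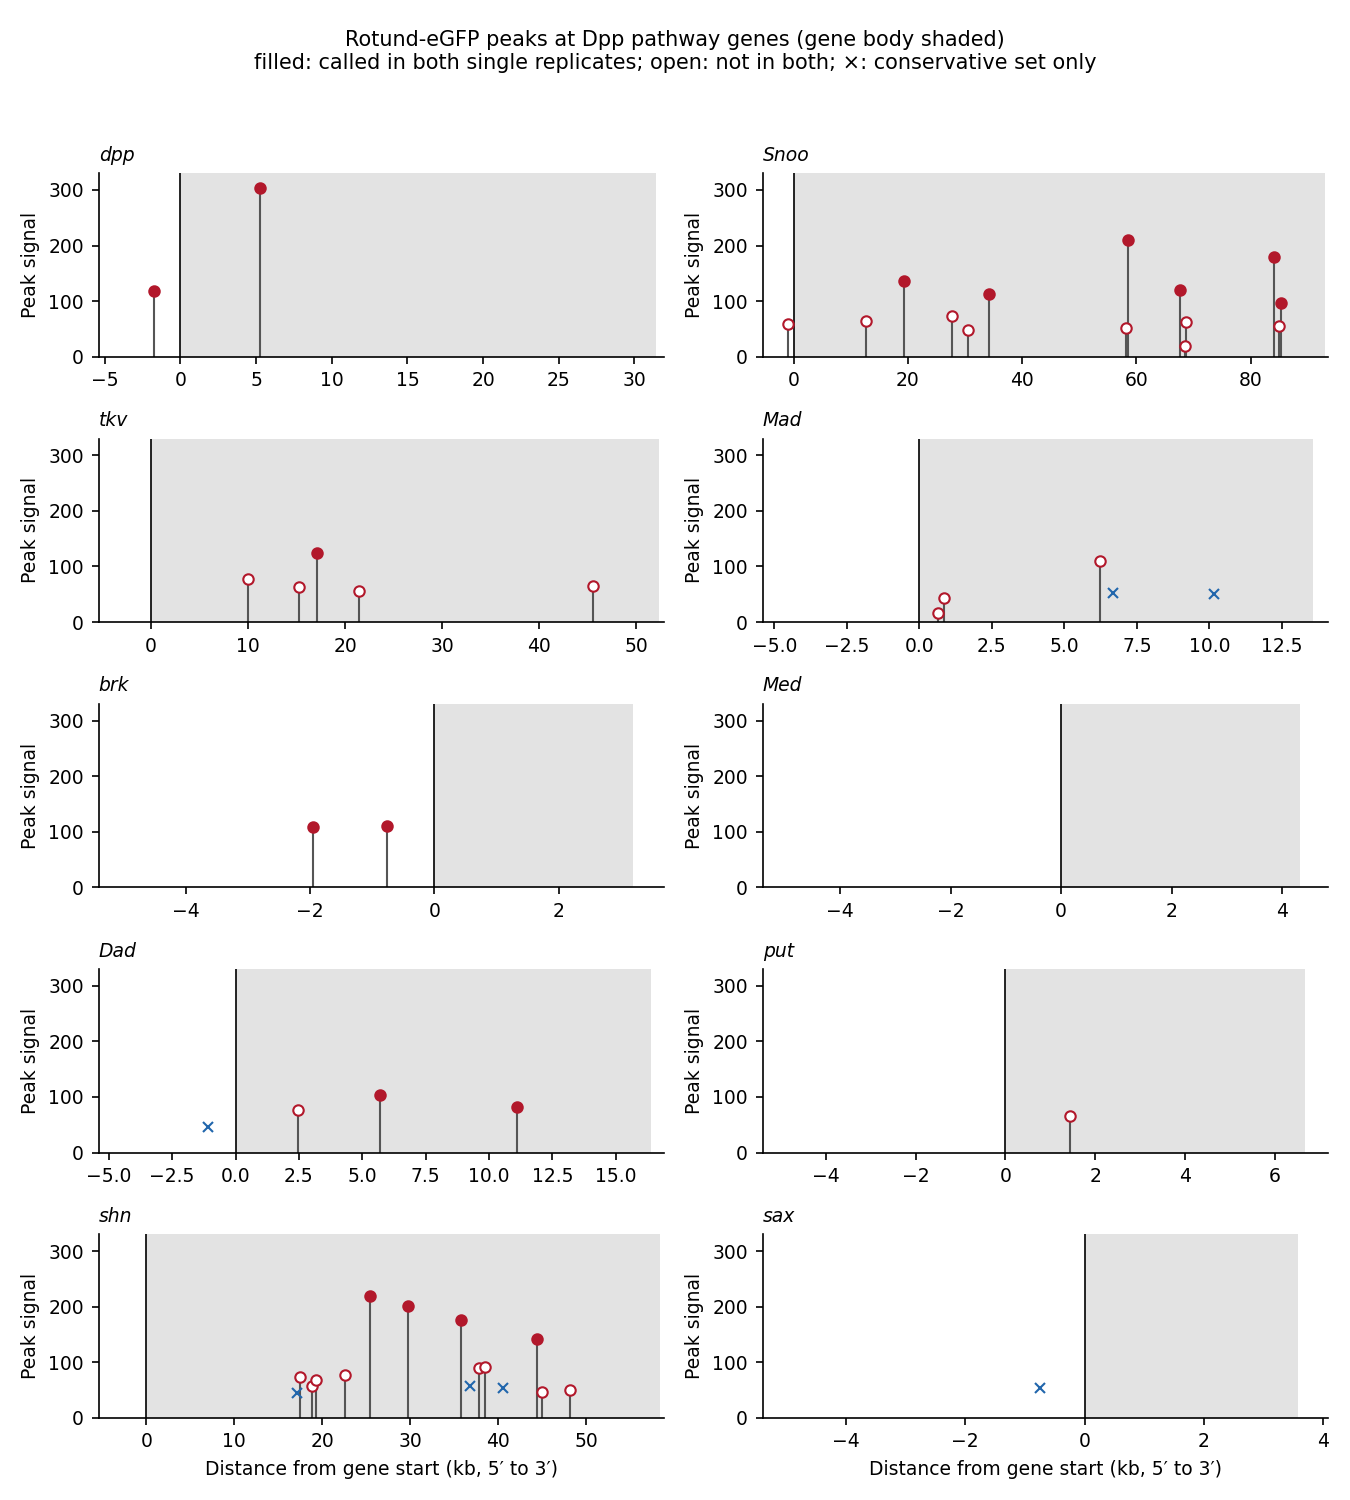
Peaks at each of the 10 genes, by distance of the summit from the gene start in kb (horizontal, gene body shaded) and by signal (vertical). Filled points were called in both single replicates, open points were not, and crosses are peaks held by the conservative set alone; the dpp peak of 304.0 is the highest and shn and Snoo carry 26 of the 42 peaks.

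The ligand gene dpp (FBgn0000490, 2L:2428372-2459823, plus strand) carried 2 peaks. The stronger lay in intron 1 of 2 of its longest transcript, at 2L:2433560-2433722, with a signal of 163.9 in replicate 1 and 142.4 in replicate 2. Over both replicates its signal was 304.0, rank 137 of 3777. A second peak stood 1759 bp upstream of the gene, at 2L:2426465-2426760, with 59.7 and 61.3 in the replicates and 118.9 over both. Its summit was nearer to a start of another gene, a long noncoding RNA gene, at 1268 bp. Both dpp peaks were called in each replicate, and the intronic one was higher than the upstream one in each.

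The rest of the dpp body had no called peak. Its strongest remaining ranked peak, at 2L:2446985-2447280, had a signal of 38.3. Its irreproducible discovery rate (IDR) measures poor repeat of peaks between compared peak rankings, with low values for peaks that repeat well. In the ranking behind the main set it was 0.0418, above the threshold of 0.01, and in the conservative ranking 0.447. Which rankings were compared for each list was not examined. The IDR behind the main set did not always follow agreement between the 2 replicates, as peaks near Dad and sax below show. Beyond the gene window, the region downstream of dpp, known as the home of its imaginal disc enhancers, held 2 weak peaks within 30 kb. They lay 18732 and 21576 bp past the gene end, with signals of 55.2 and 46.6, and neither was called in a single replicate. On the other side, 1 peak at 2L:2413179-2413474 was called in both replicates, with 69.6 in replicate 1, 37.9 in replicate 2 and 105.4 over both. Its summit lay in an intron of a gene other than dpp. This look beyond the window was added after the peaks at dpp had been seen.

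Of the receptor genes, tkv carried the most peaks. This gene for the main type I Dpp receptor (FBgn0003716, 2L:5219000-5271384, minus strand) had 5 peaks, all in introns. The strongest, at 2L:5254138-5254433, lay 17.1 kb into the gene with 50.4 in replicate 1, 71.9 in replicate 2 and 123.7 over both. It was the single tkv peak called in both replicates. The other 4 had signals of 55.0 to 77.5, and 3 of them were called in 1 replicate.

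The type II receptor gene put (FBgn0003169, 3R:14619030-14625703, minus strand) had 1 intronic peak 1445 bp from its start, at 3R:14624110-14624405. Its signal was 47.8 in replicate 1, 25.2 in replicate 2 and 66.1 over both, below the median of the set, and it was called in replicate 1 alone. The upstream window of His4r also covers this summit.

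The type I receptor gene sax (FBgn0003317, 2R:7806484-7810067, plus strand) had no peak in the main set or in either replicate's set. A peak 752 bp upstream of its start, at 2R:7805584-7805879, had 27.0 in replicate 1, 28.7 in replicate 2 and 53.9 over both. It was in the conservative set with an IDR of 0.00435, and its IDR in the ranked list that belongs to the main set was 0.123. The lists disagree about it. The summit lay 166 bp from a start of Nop17l, nearer than to any start of sax.

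Of the Smad genes, which encode the transducers that carry the signal to the nucleus, Mad had peaks and Med had none. Mad (FBgn0011648, 2L:3146056-3159643, minus strand) held 3, all in introns. The strongest, at 2L:3153278-3153573, lay 673 bp upstream of a second Mad transcript start, with 48.3 in replicate 1, 66.2 in replicate 2 and 109.1 over both. It was called in replicate 2 alone. The other Mad peaks, with signals of 42.8 and 16.6, overlap each other and may be 1 site; neither was called in a single replicate, so no Mad peak was held by the set of replicate 1. The conservative set lacked both weak peaks, which lay 855 and 646 bp from the gene start. It held a pair of others elsewhere in the gene, 6680 and 10174 bp from the start. Their signals were 52.2 and 49.8, the former 210 bp from a Mad transcript start.

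Med, the gene for the co-Smad partner of Mad (FBgn0288966, 3R:31611046-31615375, plus strand), had its strongest ranked peak 81 bp inside its start, at 3R:31610979-31611274. The signal was 26.6 in replicate 1, 21.1 in replicate 2 and 44.3 over both, with an IDR of 0.0253. No thresholded list held a peak at Med.

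The inhibitory Smad gene Dad (FBgn0020493, 3R:17054007-17070408, plus strand), itself a known Dpp target that dampens the pathway, held 3 intronic peaks. The strongest, at 3R:17059572-17059867, had 53.2 in replicate 1, 49.3 in replicate 2 and 104.1 over both. The next, at 3R:17064964-17065259, had 42.8, 38.2 and 81.2. These 2 were called in both replicates. The third, 2478 bp from the gene start, had 38.5, 44.5 and 76.3 and was called in replicate 2 alone. The 3 Dad peaks were of like height and spread over introns 2, 3 and 5 of its longest transcript. The conservative set held another, 1089 bp upstream of Dad, with 26.7 in each replicate and 45.4 over both. Its IDR was 0.00535 there and 0.752 in the ranking behind the main set.

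The repressor gene brk (FBgn0024250, X:7307939-7311132, plus strand), which Dpp signalling silences, had 2 peaks and both were upstream of the gene. The nearer, at X:7307032-7307327, lay 759 bp from the start with 48.3 in replicate 1, 60.7 in replicate 2 and 109.8 over both. The farther, at X:7305831-7306126, lay 1960 bp upstream with 74.2, 54.7 and 108.0. Their order differed between the replicates, and over both they were nearly equal. Both were called in each replicate. Both summits also lie in an intron of CG1677, a gene of 124.7 kb with 12 peaks, which spans the whole of brk and its upstream region, so the rule gives them to both genes. Another ranked peak 2929 bp upstream, at X:7304862-7305157 with 33.4 in replicate 1 and 16.5 in replicate 2, stood at the edge of the IDR threshold and was not in the main set.

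The cofactor gene shn (FBgn0003396, 2R:11159086-11217394, plus strand) encodes the zinc finger protein that joins Mad and Med in silencing brk. It held 12 peaks, all in introns 1 and 2 of its longest transcript. The strongest, at 2R:11184522-11184617, had 99.6 in replicate 1, 119.6 in replicate 2 and 218.9 over both, rank 273. The second, at 2R:11188696-11188825, had 97.0, 111.2 and 201.5. The third, at 2R:11194679-11194974, had 100.6, 91.1 and 176.8. These 3 lay 25.5, 29.7 and 35.7 kb from the gene start. Their order differed between the replicates, with the third highest in replicate 1 and lowest in replicate 2.

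The fourth, at 2R:11203380-11203675, had 91.6 in replicate 1, 53.7 in replicate 2 and 141.7 over both. These 4 were the shn peaks called in both replicates, and the other 8 had signals of 46.9 to 90.6. A peak at 2R:11196783-11197078 had 74.7 in replicate 1 and 17.7 in replicate 2 and was called in replicate 1 alone. Only 4 of 13945 protein-coding genes had more peaks than shn.

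The corepressor gene Snoo (FBgn0085450, 2L:7891187-7984196, minus strand), the fly counterpart of the vertebrate Ski and Sno genes that modulate Smad signalling, held 14 peaks. Of these, 13 lay in intron 2, the last intron of its longest transcript. Only 2 protein-coding genes, sbb and kirre, had more peaks. The strongest Snoo peak, at 2L:7925503-7925654, had 106.0 in replicate 1, 105.3 in replicate 2 and 210.6 over both, rank 305. It lay 58.6 kb from the gene start. The next, at 2L:7899970-7900265 and 84.1 kb from the start, had 84.9, 92.2 and 178.7.

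Another 4 Snoo peaks were called in both replicates. That at 2L:7964647-7964942 had 71.9 in replicate 1, 65.5 in replicate 2 and 136.6 over both. The peak at 2L:7916357-7916652 had 45.9, 69.1 and 120.1, and that at 2L:7949832-7950127 had 56.7, 52.1 and 113.0. The sixth, at 2L:7898675-7898970, had 45.2, 56.0 and 96.7. These 6 sites are spread over much of the gene rather than gathered at its starts, as the plot of peaks along each gene shows.

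The other 8 Snoo peaks had signals of 18.5 to 73.3, and 6 of them were called in 1 replicate. The peaks with 61.7 and 18.5, at 2L:7915370-7915665 and 2L:7915571-7915866, overlap and share their replicate partners. The peak at 2L:7971432-7971727, with 39.6 in replicate 1, had no partner in replicate 2. The peak at 2L:7925924-7926219 had 47.5 in replicate 1 and 10.9 in replicate 2. The only one outside the gene body, 916 bp upstream of Snoo at 2L:7984964-7985259, had a signal of 59.3. Its summit lay 163 bp from a start of CG7231, so it need not belong to Snoo. The conservative set held 9 peaks at Snoo, and each replicate's set held 9.

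**Figure D2:**
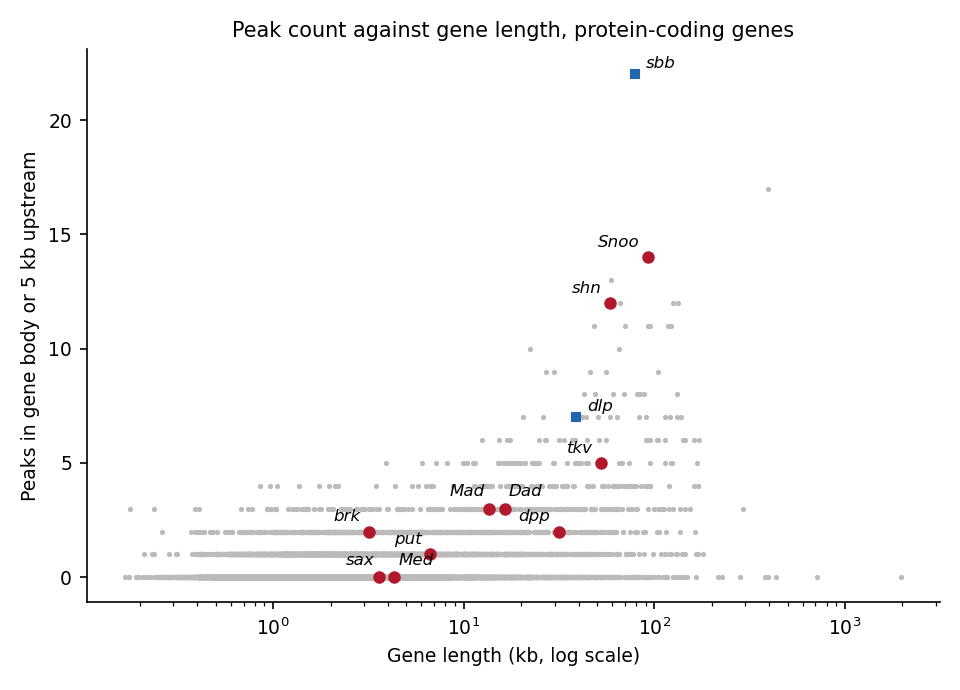
Number of peaks in the gene body or 5 kb upstream (vertical) against gene length in kb on a log axis (horizontal) for all 13945 protein-coding genes (grey), with the 10 pathway genes in red and the pathway regulators sbb and dlp in blue. Snoo (14 peaks) and shn (12 peaks) stand near the top of the genes of their length, and dpp and put lie among the many genes with 1 or 2 peaks.

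Taken per length, the 10 windows covered 332.9 kb and held 1.26 peaks per 10 kb, against 0.282 over the arms and 0.319 over the windows of all protein-coding genes of 10 kb or more. The density was 2.44 at brk, 1.90 at shn, 1.61 at Mad, 1.43 at Snoo and 1.40 at Dad. It was 0.871 at tkv, 0.857 at put and 0.549 at dpp, whose peaks were few but strong. The brk value rests on 2 peaks outside the gene body that also lie in CG1677. The values of Mad and Snoo count overlapping peaks separately. Among protein-coding genes of 50 kb or more, the class of tkv, shn and Snoo, the median was 1 peak.

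Most of the peaks lay inside the genes and away from promoters. Of the 42 summits 40 were in introns, against 42.8% of all peaks. The rule takes only summits in gene bodies or up to 5 kb upstream, so this contrast is partly built in. The intron share in windows of genes of 10 kb or more was not computed. The 2 brk summits among them lie in an intron of CG1677 and the other 38 in the gene's own. Just 1 summit was within 500 bp of any annotated transcript start, against 38.5% of all peaks and 28.4% of the peaks in windows of genes of 10 kb or more. That 1 was the summit beside the start of CG7231, so none of the 10 genes had a called promoter peak of its own in the main set. Summits stood more than 5 kb from every transcript start of their gene in 21 of 42 cases and within 2 kb in 15. With a width of 1000 bp the promoter count was 7, with the conservative set it was 3 of 37 (at CG7231, Nop17l and Mad), and with either single replicate it was 0 of 26. Of the 42 summits 8 also lay in the window of another protein-coding gene.

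Gaps between neighbouring peaks of a gene varied widely, and gaps at other genes were not computed. The 34 gaps between adjacent summits had a median of 3275 bp and a highest value of 24107 bp, with 9 of at most 1000 bp. In 2 cases, at Snoo and Mad, the peaks overlapped. Counted once each, these leave 40 sites.

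The strongest peaks were called in both replicates, and most weak ones were not. The signal over both replicates and the single replicates' calls come from the same libraries, so this is partly built in. In all, 17 of the 42 peaks (40.5%, 95% Wilson interval 27.0 to 55.5) were called in both single replicates, against 41.5% of all peaks of the set. Another 8 were called in neither (19.0%, interval 9.98 to 33.3), against 27.2% of all peaks, while 8 were called in replicate 1 alone and 9 in replicate 2 alone. The intervals cover counting error over peaks only. The peaks called in both had signals of 81.2 to 304.0 with a median of 123.7, and the 24 others with a partner in both ranked lists had 16.6 to 109.1 with a median of 62.3. All 10 peaks above the upper quartile of the set were called in both, and none of the 11 below the lower quartile was. Of the 16 peaks with a signal of 100 or more 15 were called in both, the exception being the strongest Mad peak.

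Signals of the 41 peaks with a partner in both ranked lists had a Spearman's rho of 0.616 and a Pearson's r of 0.817 across peaks. These points share the same pair of libraries and are not independent. The log2 ratio of replicate 1 to replicate 2 had an SD of 0.34 over the 17 peaks called in both and 1.05 over the other 24. The calls come from the same libraries as these signals, and unequal peaks tend to fall among the 24. This contrast is therefore partly built in. The 24 include a weak Mad peak with 3.09 in replicate 1 and 22.1 in replicate 2. They also include the overlapping Snoo peaks, entered separately with the same partners. An SD of log ratios does not depend on a constant difference in scale between the lists.

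**Figure D3:**
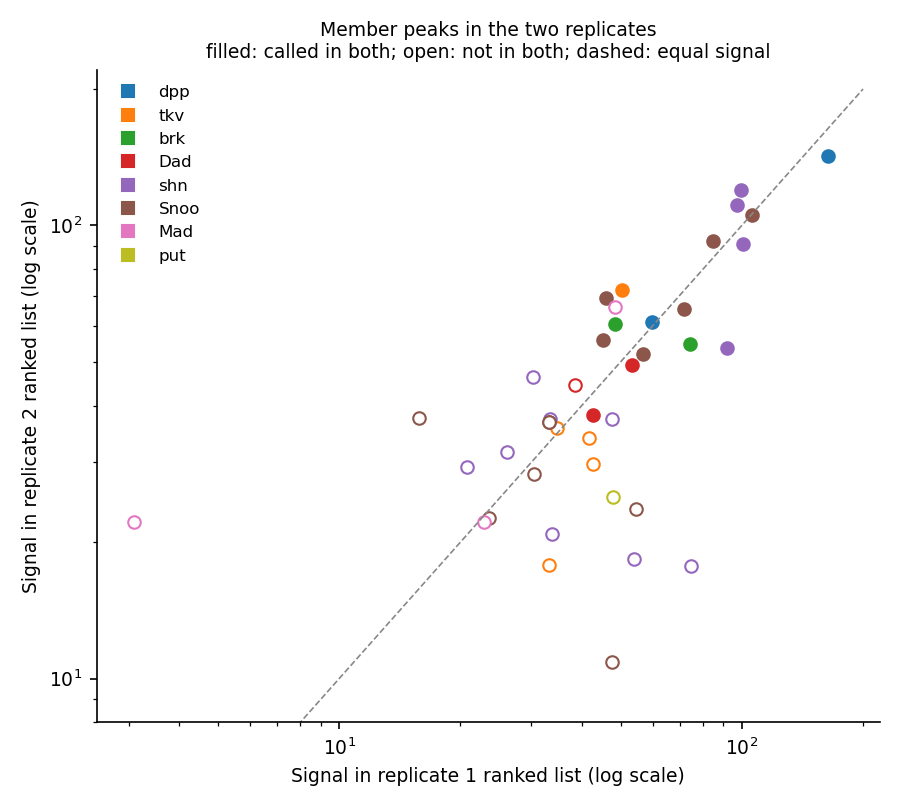
Signal of each peak in the ranked list of replicate 1 (horizontal, log scale) and of replicate 2 (vertical, log scale) for the 41 peaks with a partner in both, coloured by gene. Filled points, called in both replicates, lie in a narrow band along the dashed line of equal listed signal, and open points spread more widely (SD of the log2 ratio 0.34 and 1.05). The lists are not scaled to each other. The calls come from the same libraries as the signals, so the contrast in spread is partly built in.

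**Figure D4:**
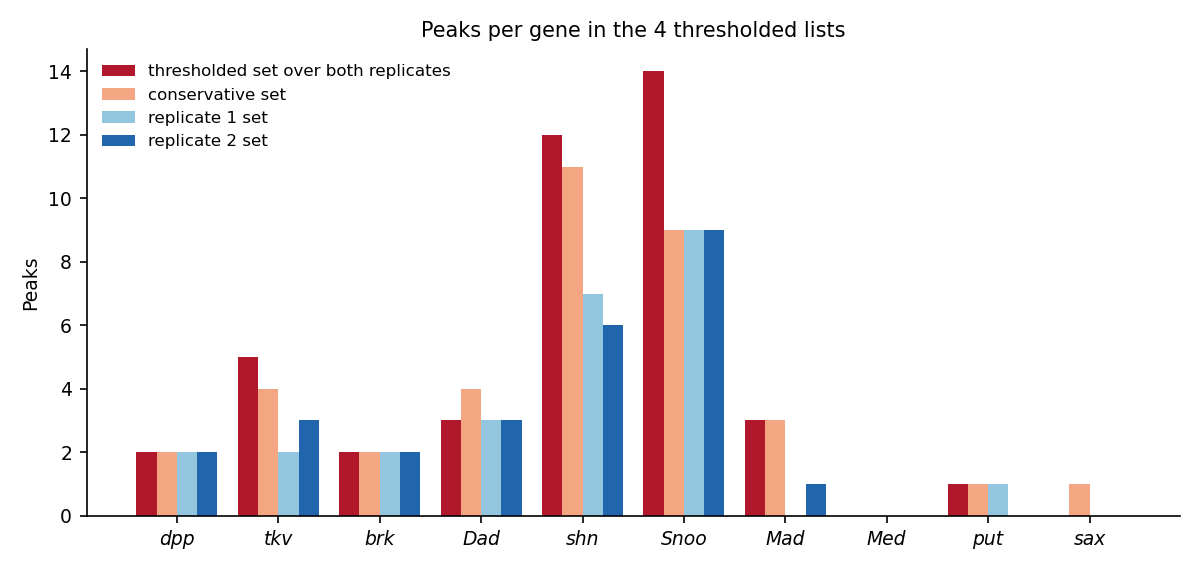
Bars give the number of peaks per gene in the thresholded set over both replicates, the conservative set and each single replicate's set. Counts at dpp and brk are 2 in all 4 lists, whereas shn falls from 12 to 7 and 6 and Snoo from 14 to 9 in the single replicates; Mad has 0 in replicate 1 and put has 0 in replicate 2.

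Bases around the summits were mostly A and T. Within 50 bp of the 42 summits the mean share of G and C was 34.6% ± 8.54 (SD over summits), and in windows of the same width 500 bp away on both sides it was 44.1% ± 7.70. For all 3774 summits these shares were 34.9% ± 10.3 and 42.8% ± 7.58. Peaks with a signal of 100 or more had less G and C (30.3% ± 6.58, 16 peaks) than weaker ones (37.3% ± 8.63, 26 peaks), and over all peaks of the set the values were 31.5% ± 8.03 and 36.7% ± 10.9. Across the 42 peaks Spearman's rho of signal with G and C content was -0.477, and over all 3774 it was -0.305, as a description with no test. A stretch of 6 or more A or T was found in 39 of 42 windows (92.9%) and in 90.6% of all windows.

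Fixed motifs were searched on both strands within 50 bp of each summit. A run of 7 A (AAAAAAA) was in 10 of 42 windows (23.8%) and 17.7% of all windows. It was at 5 shn peaks, 3 Snoo peaks, 1 tkv peak and 1 Dad peak, and at none of the dpp, brk, Mad or put peaks. The share hung on the replicate: 8 of 26 peaks (30.8%) with the set of replicate 1 and 2 of 26 (7.69%) with that of replicate 2, against 19.1% and 17.3% of all peaks of those sets. Within 25 bp of the summit it was 11.9%, against 9.41% of all peaks. The 10 peaks with such a run had a median signal of 65.9, and the 32 without one had 85.9.

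Motifs of the pathway's own factors were in few windows. The core of Mad sites, GCCGNCG, was in 3 windows (7.14%, against 1.83% of all), at a shn peak with a signal of 67.2 and at both overlapping weak Mad peaks. The Smad box core, CAGAC, was in 4 windows (9.52%, against 8.51%), with matches at 2 tkv peaks, a shn peak and a Mad peak. The strongest tkv summit printed above carries it near its 3′ end. The Brinker cores were in 0 windows (GGCGCC, 1.46% of all) and 1 window (GGCGCT, 1.96% of all, at a Mad peak). The silencer element of Schnurri, Mad and Medea was found in none of the 42 windows and in 0.0265% of all.

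Motifs of general factors were also in few windows. GAGAG was in 4 windows (9.52%, against 11.4%), TAATTA in 1 (2.38%, against 8.90%) and CAGGTA in 1 (2.38%, against 1.46%), at the upstream dpp peak. CACACA (6.89% of all) and TATCGATA (0.768% of all) were in none. Overlapping matches of different motifs were counted for each motif.

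Other genes of BMP and activin signalling, taken by role, had peaks in 24 of 45 cases (53.3%), with 74 peaks and a median gene length of 11.2 kb. For scale, 50.7% of protein-coding genes of 10 kb or more and 27.1% of all protein-coding genes had a peak. Many of the 45 are shorter than 10 kb, so 50.7% is not matched in length, here or for the roles below. When peaks had to be called in both single replicates, 15 genes had one, and the share of all protein-coding genes under that rule was not computed. The strongest signal of any was at gbb, a second BMP ligand gene. Its peak at 2R:23850302-23850524 had 301.5 in replicate 1, 305.3 in replicate 2 and 593.7 over both, rank 28. The summit lay 1137 bp upstream of gbb, inside ytr and near the start of asRNA:CR45928, so it cannot be assigned to gbb alone. The other 5 ligand genes (scw, Actbeta, daw, myo and mav) had no peak.

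All 3 remaining receptor and Smad genes had peaks, at a median length of 7.57 kb. The share was 27.1% of all protein-coding genes and 39.6% of those at least as long as brk. The type II receptor gene wit had 2, the strongest in an intron at 3L:4070549-4070700 with 157.0 in replicate 1, 122.3 in replicate 2 and 282.0 over both. Smox, the Smad gene of activin signalling, had 1 with 41.5, 53.0 and 91.5, in CG17982. The activin receptor gene babo had 2, the strongest with 47.5, 41.3 and 89.1, near a start of CG33199.

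Of 15 extracellular modulators 7 had peaks (46.7%), at a median length of 16.0 kb. The share was 50.7% among genes of 10 kb or more, a class that leaves out the shorter modulators. The Dpp feedback regulator gene magu led, at 2R:10056516-10056589 with 116.1 in replicate 1, 69.0 in replicate 2 and 186.2 over both. The follistatin gene Fs had 168.9 over both. The glypican genes dlp and dally, which shape the spread of Dpp, had 7 and 3 peaks, with strongest signals of 150.4 and 121.3.

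Intracellular regulators had peaks in 5 of 7 cases (71.4%), at a median length of 14.6 kb and against the same 50.7%. The most peaks of any protein-coding gene, 22, were at sbb, also called master of thickveins for its effect on tkv expression in the wing. Its strongest, in an intron at 2R:18302833-18302997, had 141.7 in replicate 1, 166.6 in replicate 2 and 309.5 over both, and the single replicates' sets held 14 and 13 of its peaks. The corepressor gene gro, whose product works with Brk, had 2 peaks, the strongest at its promoter at 3R:26042425-26042599 with 172.6, 155.5 and 328.5. The coactivator gene nej reached 134.6, near a start of lncRNA:CR42657, and the kinase gene nmo 108.9, the latter near a start of HP4. Smurf and fu had no peak.

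Genes known as Dpp targets in various tissues had peaks in 8 of 14 cases (57.1%), at a median length of 15.0 kb. The share was 50.7% among genes of 10 kb or more, a class that leaves out the shorter targets. The strongest was at bam (171.6), but its summit lay at the start of the neighbouring RpS27. The heart gene tin had a promoter peak with 82.2 in replicate 1, 79.1 in replicate 2 and 159.9 over both. The spalt family gene salr had a promoter peak at 2L:11358486-11358781 with 83.5, 32.2 and 114.0, called in replicate 1 alone, and Ance had 99.5 at a site inside Smg5. The genes salm, vg, kni, tup, zen and lab had none in the main set, and tup had 1 in the conservative set.

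**Figure D5:**
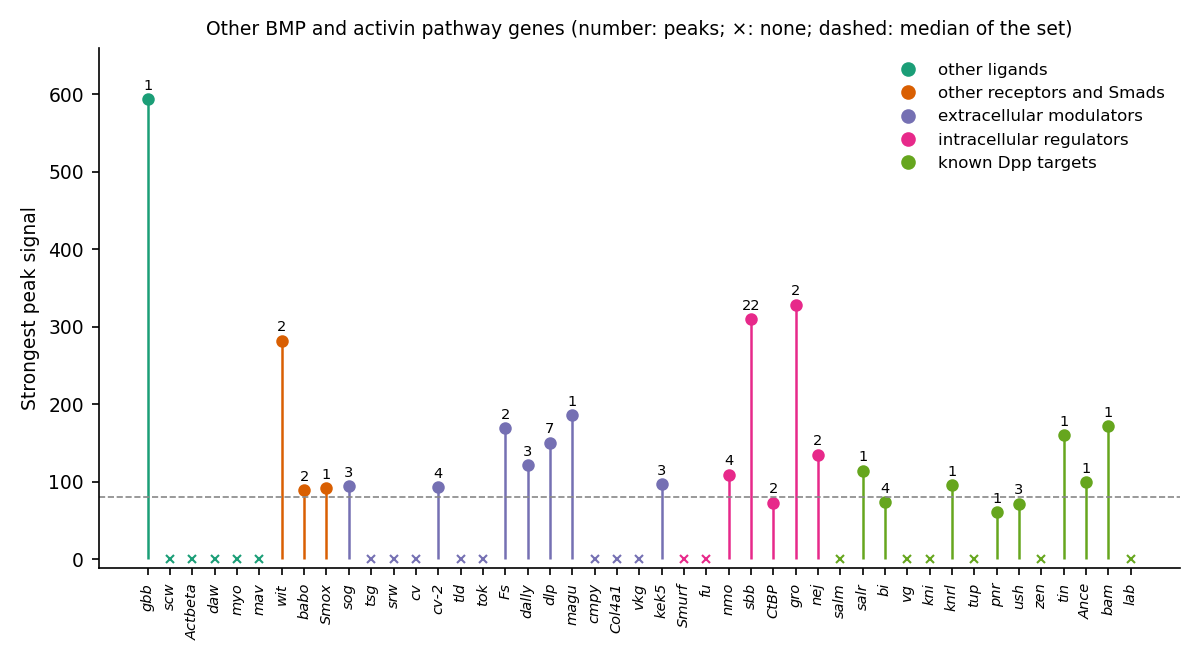
Strongest peak signal (vertical) at each of the 45 other pathway genes, coloured by role, with the number of peaks above each point crosses for genes with none and a dashed line at the median of the main set (79.7). The highest points are gbb (593.7), gro (328.5), sbb (309.5) and wit (282.0), and 5 of 6 other ligand genes have no peak.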

How the data were processed

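ChIP-seq peaks of Rotund-eGFP in whole pupae were taken from deposited lists for 2 replicates of 1 group and for both together, on dm6, per the labels. Signal in the deposited files is the peak height and is not scaled between lists. The deposited score is the IDR rescaled by the authors to at most 1000, and deposited ranked lists also hold −log10 of the IDR. All thresholded lists begin at a score of 830, an IDR of 0.01. Aligner and caller: not given in the sources used here. Without reads, depth is unknown. Control libraries were not analysed here.

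Summits were placed on Ensembl release 115 gene models (BDGP 6.54) and the Release 6 genome from RefSeq, 1-based, and peaks off the 6 arms (3 in the main set) were left out. Classes were taken in the order promoter (500 bp), coding exon, other exon, intron and intergenic, without transposable elements. Replicate peaks sharing 1 bp were called shared. No test was run: with 1 group there is no comparison between conditions. The functions were tested on simulated data. Members, lists and motifs were chosen with earlier results of these data known. The text names the 10 genes, up to 4 genes per role by strongest peak, genes that hold a described summit, and rn. Other genes (kirre, and role genes without a peak) were named after their values were seen. Alternatives were other peak sets, windows, overlaps and thresholds. Intervals came from scipy 1.17.1, figures from matplotlib 3.10.9 and tables from pandas 2.3.3 with numpy 2.4.6, under Python 3.11.15.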

Additional observations from a re-analysis of the deposited data

Results flagged for a closer look

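The peak 752 bp upstream of sax is a signal in a list that the main counts did not use. It was in the conservative set with a signal of 53.9 (27.0 in replicate 1 and 28.7 in replicate 2) and absent from the main set, where its IDR was 0.123 against 0.00435 in the conservative ranking. Its summit lay 166 bp from a start of Nop17l.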

How the results depend on the processing

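The count of pathway genes with a peak stayed between 6 and 10 under all alternatives run. It was 6 when peaks had to be called in both replicates and 10 with 30000 bp downstream added. The share of all protein-coding genes was not computed at these 2 settings, and a longer window can only raise it. The 42 peaks fell to 26 in each single replicate's set and to 22 at an IDR of 0.001. Of the other pathway genes 15 had a peak called in both replicates, again without a computed share for all protein-coding genes. Promoter summits were 7 at a width of 1000 bp, 3 in the conservative set and 0 in either replicate alone. In the ranked lists 41 peaks had a partner in both replicates, since these lists hold far more peaks. The median percentile of each gene's strongest peak was 73.9 in the main set, 70.0 in the conservative set, 97.9 to 98.7 in the replicates' ranked lists and 99.1 in that over both, which are longer by construction. A runs were found at 11.9% within 25 bp and at 7.69% to 30.8% in single replicates. G and C content was 36.6% within 100 bp, 33.9% in the conservative set and 32.2% to 33.2% in single replicates. Peak counts of single genes stayed within 1.5 times in 62 of 90 cases. These 62 include counts that were 0 and stayed 0, in every case at Med and in all but the conservative set at sax. The causes were not tested. The added alternatives (peaks called in both replicates, overlapping peaks counted once, 30000 bp downstream) were chosen after seeing the data. No paired analysis was possible because the series has 1 group.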
